A study of Rattus norvegicus with 18 samples.

Results

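The 10 genes described here encode fibronectin and proteins of elastic fibres, and were followed through 18 RNA sequencing libraries of cultured rat nucleus pulposus cells. They are the rows of the deposited count table named Fn1, Fbn1, Fbn2, Eln, Fbln1, Fbln2, Fbln5, Efemp2, Emilin1 and Mfap5. All 10 were found among the 33898 genes of the table, and 9 of them were among the 14184 genes with enough counts to be tested. Eln, at 1 to 15 counts in a library, was not. The nucleus pulposus is the gel-like core of the intervertebral disc. The cells came from Sprague Dawley rats aged 8 weeks, with no genetic change named, and were grown in DMEM with fetal bovine serum. Braco-19, PDS or Phen-DC3 was then given for 24 hours, all of them compounds used to stabilise G-quadruplexes, the folds that guanine-rich DNA and RNA can form. Each compound and each of 3 control groups had 3 libraries. The PDS controls and the Phen-DC3 controls are named for their compound, and the remaining control group, called the unnamed controls below, was set against Braco-19 by elimination. Neither doses nor a vehicle are named in the labels. The libraries of a group are described as biological repeats, without saying whether different rats or only different wells gave them, so the p-values measure the spread between these libraries.

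Fibronectin is a secreted glycoprotein that cells draw into fibrils through integrins, and it is among the first fibres laid down in a new matrix. Elastic fibres have a core of cross-linked elastin on a scaffold of microfibrils, which are built from fibrillins. Fibulins and emilins join the core to the scaffold and to the cell surface, and lysyl oxidases cross-link it. In the disc, elastic fibres run between the collagen bundles and help the tissue to recover its shape.

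Of the 10 genes, Fn1 encodes fibronectin, and Fbn1 and Fbn2 encode fibrillin-1 and fibrillin-2. Eln encodes tropoelastin, the soluble precursor of elastin. Fbln1 and Fbln2 encode fibulins that bind fibronectin, and the fibulin of Fbln2 also binds fibrillin. Fbln5 encodes fibulin-5, which binds elastin and integrins, and Efemp2 encodes fibulin-4, which brings lysyl oxidase to elastin. Emilin1 encodes a glycoprotein of the elastin to microfibril interface, and Mfap5 a small glycoprotein of microfibrils. As the deposited table gives them (genome build not given in the sources used here), all are protein-coding. Fn1 (ENSRNOG00000014288) lies on chromosome 9 from 78900103 to 78969078 and Fbn1 (ENSRNOG00000007302) on chromosome 3 from 117569697 to 117766120, both on the minus strand. Fbn2 (ENSRNOG00000043219) lies on chromosome 18 from 53068495 to 53181503, minus strand, and Eln (ENSRNOG00000001469) on chromosome 12 from 24978483 to 25021863, plus strand. Fbln1 (ENSRNOG00000014137) is on chromosome 7 from 126096793 to 126176468 and Fbln2 (ENSRNOG00000007338) on chromosome 4 from 122835436 to 122895121, both plus. Fbln5 (ENSRNOG00000050539) is on chromosome 6 from 125644804 to 125723944, minus, and Efemp2 (ENSRNOG00000020587) on chromosome 1 from 220854403 to 220861420, plus. Emilin1 (ENSRNOG00000008246) is on chromosome 6 from 26821255 to 26828972, minus, and Mfap5 (ENSRNOG00000015505) on chromosome 4 from 155313671 to 155336228, plus. Gene models on the opposite strand overlap Fn1, Fbn1 and Fbn2. Whether counting used the strand is not given, so reads within the overlaps cannot be told apart. The overlapping models themselves held 3.8, 5.4 and 0 counts a library on average.

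Because the compounds bind guanine-rich folds, the promoters of the genes that passed a compound's test are shown where the RefSeq promoter table (build GRCr8, whose positions differ from those of the deposited table) holds them. It held 6 of the 10 genes: Fbn1, Fbn2, Fbln2, Fbln5, Efemp2 and Mfap5. The 250 bases before the start of each gene were searched on both strands for 4 runs of GGG or longer, with 1 to 7 bases of any kind between neighbouring runs. On the strand of the gene, a match on the other strand reads as runs of C. The 3 promoters follow, 5′ to 3′ on the strand of the gene, with the runs of each match in capitals. In Fbn1 the 4 runs lie within 2 unbroken tracts of C, because a base between runs may itself be C. They are chr6:126742707-126742956 (minus strand) for Fbln5, chr3:133203391-133203640 (minus strand) for Fbn1 and chr4:125261409-125261658 (plus strand) for Fbln2.
Fbln5 promoter: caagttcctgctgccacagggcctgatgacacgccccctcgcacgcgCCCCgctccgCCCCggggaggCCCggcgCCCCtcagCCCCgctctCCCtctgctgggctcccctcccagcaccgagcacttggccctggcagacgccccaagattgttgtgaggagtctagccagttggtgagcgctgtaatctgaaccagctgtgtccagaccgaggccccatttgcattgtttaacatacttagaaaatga
Fbn1 promoter: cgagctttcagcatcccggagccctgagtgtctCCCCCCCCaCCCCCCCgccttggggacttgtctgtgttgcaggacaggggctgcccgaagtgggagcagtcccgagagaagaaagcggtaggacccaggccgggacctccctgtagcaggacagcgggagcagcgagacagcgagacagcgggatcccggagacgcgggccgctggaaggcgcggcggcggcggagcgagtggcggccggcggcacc
Fbln2 promoter: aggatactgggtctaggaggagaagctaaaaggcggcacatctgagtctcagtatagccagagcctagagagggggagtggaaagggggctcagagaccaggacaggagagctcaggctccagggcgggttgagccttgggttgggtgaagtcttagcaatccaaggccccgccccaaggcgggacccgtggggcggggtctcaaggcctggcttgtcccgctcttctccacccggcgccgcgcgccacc
Fbln5 and Fbn1 each held 1 match, on the other strand, ending 155 and 201 bases before the start. Fbln2, Fbn2, Efemp2 and Mfap5 held none in this window. Of all 33469 promoters in the table, 14.9% held such a match, and of the 13853 whose symbol is in the deposited table, 20.5% did. A match describes letters and shows neither a fold nor a binding site.

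Library totals ran from 15715121 to 18369443 counts. Of 13 nucleus pulposus markers in the table, Tbxt, Krt19 and Shh were at 0 in every library and Krt18 reached no more than 0.112 CPM (counts divided by the library size in units of 1e6, with library sizes scaled by TMM). Acan reached 3.44 CPM, Pax1 116 CPM and Foxf1 48.0 CPM. In the 4 PDS and Phen-DC3 groups Acan reached no more than 0.4158 CPM. The label of the tissue therefore rests on some of its markers and not on others. The libraries also differed by gene length, between control groups as well as with a compound. Genes with models over 5000 bases, Fn1 left out, held 7.32% to 8.97% of counts on average in the 4 PDS and Phen-DC3 groups, and 18.8% to 19.2% in the unnamed control libraries and 18.5% ± 0.54 (SD, n = 3) with Braco-19. Fn1, Fbn1 and Fbn2, at 8406, 9891 and 7808 bases, are longer than 97.6% or more of the genes tested, while Mfap5, at 1088 bases, is longer than only 16.6%. Differences below are therefore given as counted and, for genes that passed and where noted, again after a correction for length, which fits a smooth curve of each library's deviation on gene length and removes it.

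Fibronectin was by far the most abundant of the 10 transcripts. Levels of different genes are compared only per kilobase of gene model, as CPM per kb. In the PDS controls Fn1 stood at 1048 ± 169 CPM per kb (SD, n = 3), followed by Efemp2 at 556 ± 34.6 and Emilin1 at 112 ± 5.93. Mfap5, Fbln5, Fbln1, Fbln2 and Fbn1 followed between 18.0 and 13.2 CPM per kb on average. Among neighbours in that group of 5, the ranges of Mfap5 and Fbln5 overlapped, as did those of Fbln1 and Fbln2. The range of Mfap5 also overlapped those of Fbln1 and Fbln2, and the range of Fbln5 lay within that of Fbln2. Fbn2 (0.056 CPM per kb) and Eln (0.049) were near the limit of detection and did not differ beyond their spread. Transcripts of elastin itself were at trace levels where those of its fibulin and emilin partners were not. In the Phen-DC3 controls the first 3 genes stood in the same order, and the ranges of neighbours among the next 5 all overlapped. In the unnamed controls the order changed. Fn1 stood at 9281 ± 66.1 CPM per kb and Efemp2 at 313 ± 4.14, and Fbn1 came next at 112 ± 2.78, ahead of Emilin1 at 88.9 ± 3.66 and Fbln2 at 34.2 ± 2.10. Fbln1 (16.1) and Fbln5 (14.6) overlapped, and Mfap5 was lower at 4.49 ± 0.17.

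**Figure D1:**
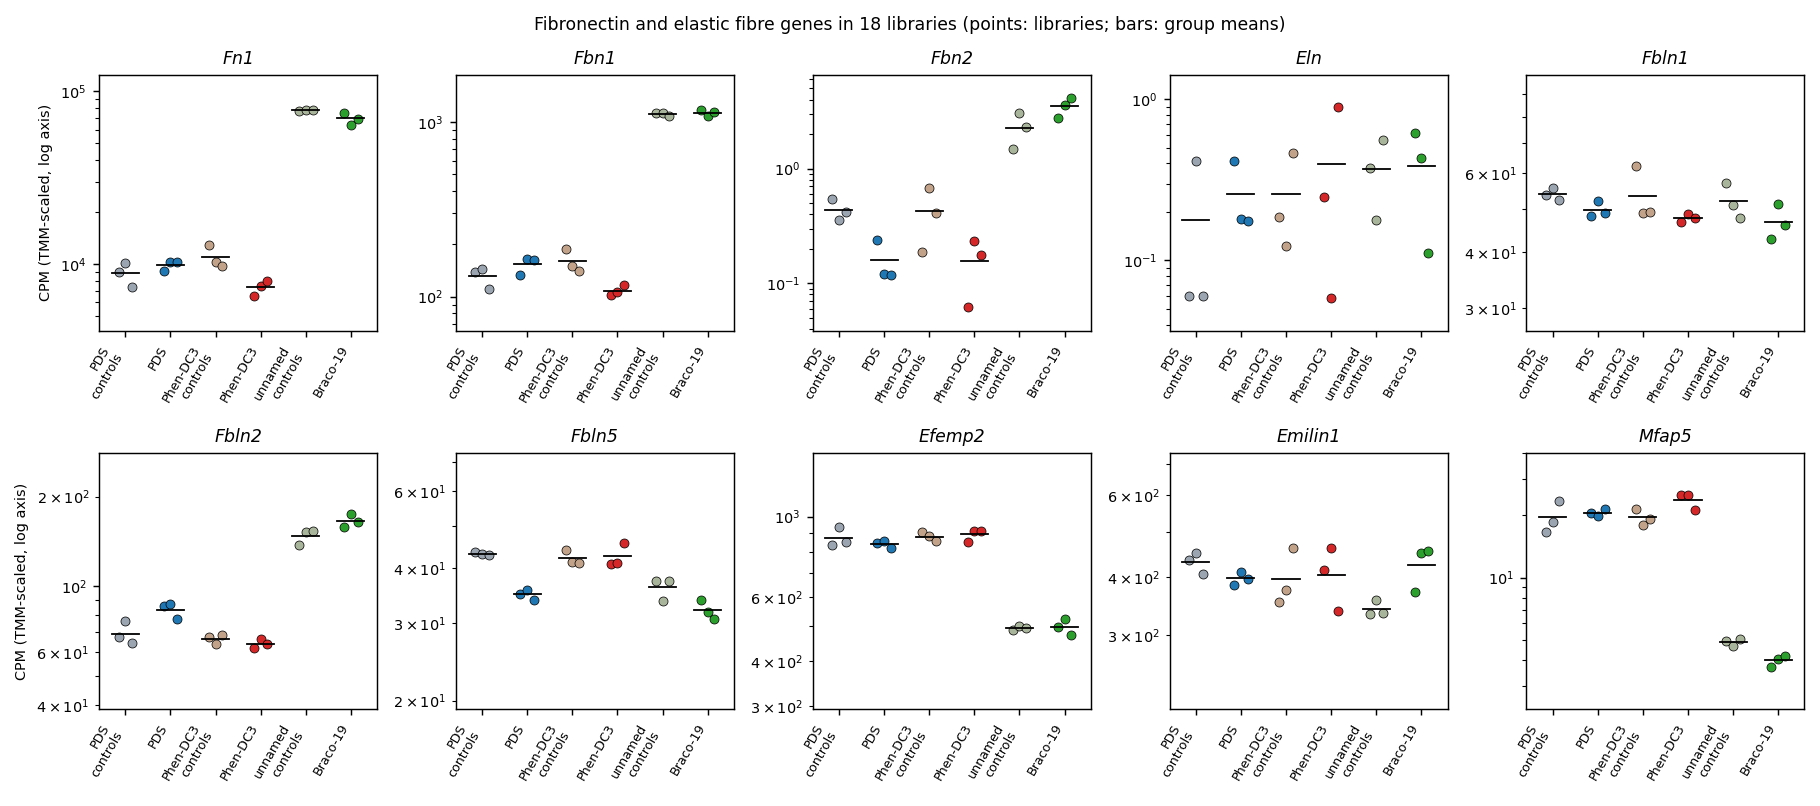
CPM of the 10 genes (log axes, 1 panel a gene) in the 6 groups on the horizontal axis; each point is a library and each bar the mean of 3. Fn1, Fbn1, Fbn2 and Fbln2 stand higher in the unnamed controls and with Braco-19 than in the other 4 groups, and Mfap5 and Efemp2 stand lower.

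Eln gave 9 counts over the 3 PDS control libraries, 13 with PDS, 13 in the Phen-DC3 controls, 20 with Phen-DC3, 18 in the unnamed controls and 21 with Braco-19. Its libraries overlapped between the groups of every comparison made here. No difference in Eln was detectable at this depth.

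More of the 9 tested genes passed between the unnamed controls and the other 2 control groups than with any compound. The same held for all tested genes, with shares given below. The 3 library values of Fn1 were 8995, 10133 and 7312 CPM in the PDS controls, 12955, 10329 and 9708 in the Phen-DC3 controls, and 77376, 78317 and 78358 in the unnamed controls. The unnamed controls stood far above both other groups, which overlapped each other. Fn1 alone held 7.75% ± 0.04 of all counts in the unnamed controls and 0.88% ± 0.15 in the PDS controls (SD, n = 3). In edgeR's quasi-likelihood test, with Benjamini-Hochberg adjustment over all genes tested, Fn1 was 8.85-fold lower in the PDS controls than in the unnamed controls (log2 difference -3.15 ± 0.12, SE, adjusted p = 6.5e-14). Fbn1 was 8.46-fold lower (131 ± 18.0 against 1107 ± 27.4 CPM, log2 -3.08 ± 0.11, edgeR adjusted p = 2.5e-14). In RNA from many cells, fewer cells of a type and less RNA per cell cannot be told apart.

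Of the 9 tested genes, 4 were lower and 4 higher in the PDS controls than in the unnamed controls. The background was high, since 73.3% of all tested genes passed in this comparison, 37.7% lower and 35.6% higher. The 4 lower genes were Fn1, Fbn1, Fbln2 (-1.09 ± 0.08, edgeR adjusted p = 5.3e-11) and Fbn2 (-2.36 ± 0.41, edgeR adjusted p = 3.0e-05). Fbn2 rested on 6 to 9 counts in the PDS control libraries against 24 to 51, and it reached the tests only through the unnamed control and Braco-19 libraries, so it had to differ. Without it, 7 of 8 passed. The libraries of the 2 groups did not overlap for 8 of the 10 genes, Eln and Fbln1 excepted, against 76.9% of all tested genes. The 4 higher genes were the microfibril glycoprotein gene Mfap5, Efemp2, Emilin1 and Fbln5. Mfap5 stood at 16.6, 18.6 and 23.5 CPM in the PDS controls and at 4.91, 4.69 and 5.05 CPM in the unnamed controls, a 4.01-fold difference (log2 2.003 ± 0.13, edgeR adjusted p = 2.6e-11). Efemp2 was 1.78-fold higher (875 ± 54.4 against 492 ± 6.52 CPM, log2 0.83 ± 0.06, edgeR adjusted p = 1.3e-10). Emilin1 differed by 0.33 ± 0.11 (edgeR adjusted p = 0.0086) and Fbln5 by 0.26 ± 0.08 (edgeR adjusted p = 0.0048). Fbln1 did not pass (0.05, 95% interval -0.14 to 0.25).

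The Phen-DC3 controls, set against the same unnamed control libraries, gave 4 lower and 3 higher of 9, where 69.5% of all genes passed, 34.9% lower and 34.6% higher. The log2 differences were -2.83 ± 0.12 for Fn1, -2.80 ± 0.11 for Fbn1, -1.14 ± 0.08 for Fbln2 and -2.40 ± 0.42 for Fbn2, and 2.001 ± 0.13 for Mfap5 and 0.84 ± 0.06 for Efemp2. All 6 had edgeR adjusted p-values of at most 3.0e-05. Fbln5 was higher by 0.22 ± 0.08 (edgeR adjusted p = 0.0141), a call lost without Phen-DC3 control library 1 (0.19, adjusted p = 0.0535) or without unnamed control library 2 (0.17, adjusted p = 0.082). Emilin1 (0.22 ± 0.11, edgeR adjusted p = 0.0761) did not pass as counted. It passed without Phen-DC3 control library 1 (0.29, adjusted p = 0.0275) and after the correction for length. Without Fbn2, 6 of 8 passed. Groups did not overlap for 7 of the 10, with Eln, Fbln1 and Emilin1 the exceptions, against 71.2% of all tested genes.

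The order of these differences followed the order of gene length. Over the 9 genes, which share the same 6 libraries, the Spearman correlation of length with the log2 difference was -0.933 for the PDS controls and -0.967 for the Phen-DC3 controls against the unnamed controls. Over all tested genes it was -0.496 and -0.474. After the correction it was -0.867 over the 9 genes in both comparisons, so their order by length was nearly kept. After the correction for length the differences of the long genes were smaller and in the same direction. Fn1 was lower by a log2 difference of -1.36 in the PDS controls and -1.33 in the Phen-DC3 controls, and Fbn1 by -1.02 and -1.06, in place of values near -3. Fbln2 differed by -0.39 and -0.57, Mfap5 by 1.33 and 1.43, and Efemp2 by 0.39 and 0.45. All of these still passed in edgeR, with adjusted p-values of at most 0.000255. Fbln1 passed after the correction (0.38, edgeR adjusted p = 8.5e-04, and 0.29, adjusted p = 0.0073), and Fbn2 no longer did in the PDS controls (-0.72, adjusted p = 0.139). With the correction 8 of the 9 genes passed in the PDS controls. In the Phen-DC3 controls all 9 did, Emilin1 included. Of all tested genes 67.1% and 62.7% passed.

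**Figure D2:**
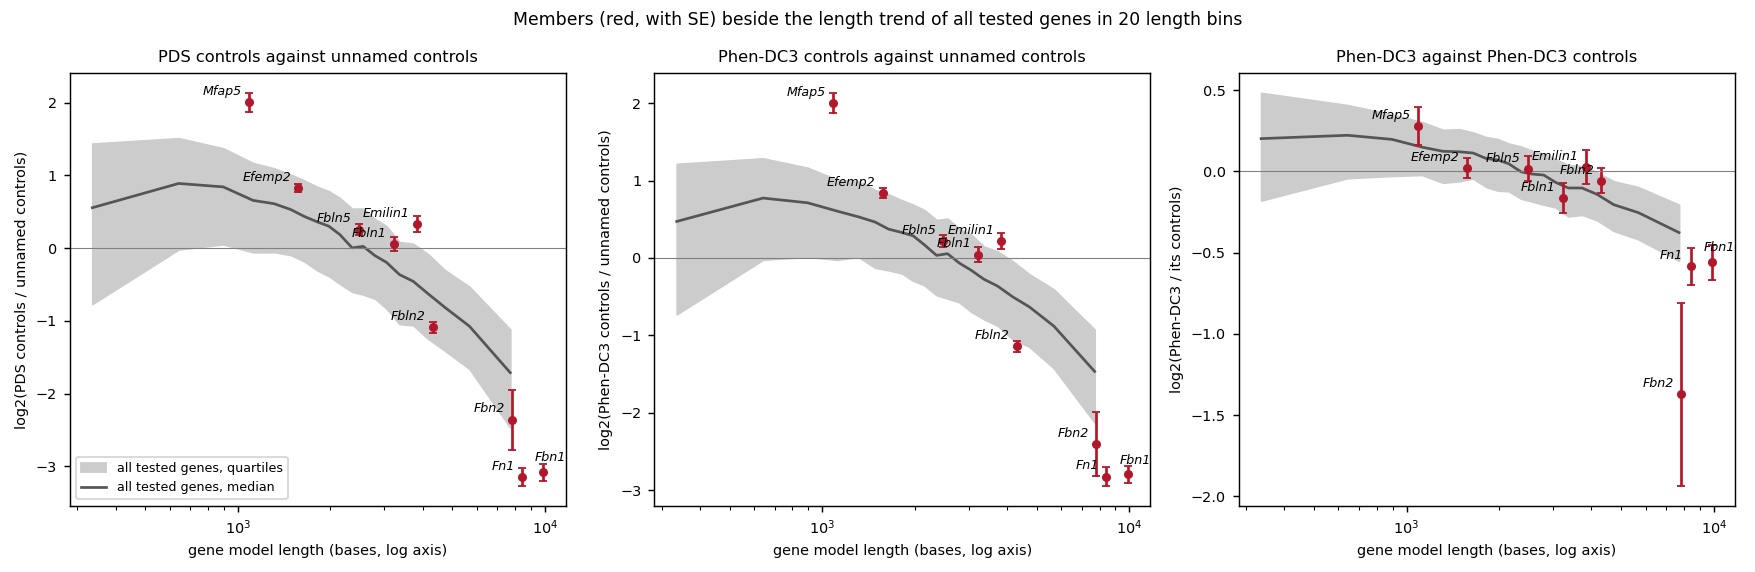
Log2 difference (vertical axis) against gene model length in bases (log horizontal axis) for 3 comparisons; the line and band are the median and quartiles of all tested genes in 20 length bins, and the red points are the 9 tested genes with SE. Fn1 and Fbn1 lie at the long end, below the lowest bin median, in all 3 panels, and Mfap5 lies at the short end, above the upper quartile in both control comparisons.

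Levels of some nucleus pulposus markers and of some other cell types' markers moved with the same split. Acan averaged 0.18, 0.1396 and 2.849 CPM in the PDS, Phen-DC3 and unnamed controls. In the same order Sox9 (6.722, 6.888 and 14.96 CPM) and Pax1 (78.16, 76.14 and 111.3 CPM) were also higher in the unnamed controls. Cd24 (37.29, 39.82 and 13.73 CPM), Krt8 (14.59, 12.48 and 7.198 CPM) and Ca12 were lower there. Col2a1 and Ca3 overlapped between the unnamed controls and both other groups. The summed level of the fibroblast and outer annulus markers, all of which had counts except Tnmd at 0, was 2366 to 2850 CPM in the PDS controls, 2481 to 2744 in the Phen-DC3 controls and 5349 to 6604 in the unnamed controls. Col1a1 carried that sum (1356, 1413 and 4855 CPM on average). Pdgfrb (116, 132 and 340 CPM), Pdgfra (130, 166 and 200 CPM) and Mkx (11.65, 12.79 and 15.29 CPM) were also higher in the unnamed controls. Thy1 (935, 798 and 560 CPM) and Scx (108, 83.5 and 47.4 CPM) were lower there. The smooth muscle markers summed to 1787 to 1956, 1589 to 1854 and 732 to 1015 CPM. Of these, Tagln (1303, 1128 and 431 CPM), Acta2 and Cnn1 were lower in the unnamed controls, and Smtn (234, 214 and 331 CPM) and Myh11 (6.38, 8.51 and 9.07 CPM) were higher. Endothelial markers summed to at most 1.87 CPM and leukocyte markers to at most 5.27 CPM in any library, with Cdh5 and Ptprc at 0. The part of cell composition in these differences was not tested. The length trend is tied to the control group, so differences between these cells and differences in library composition by length cannot be told apart.

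The PDS controls and the Phen-DC3 controls differed in none of the 9 tested genes, where 6.09% of all genes passed. That is 864 genes, and 3 to 2752 with 1 library left out. At an unadjusted p under 0.05 the count was 2, and DESeq2 called 0. These 2 were Fn1 (-0.32 ± 0.11, edgeR adjusted p = 0.0885) and Fbn1 (-0.28 ± 0.11, edgeR adjusted p = 0.109). Both passed without Phen-DC3 control library 3 (-0.40, adjusted p = 0.024, and -0.36, adjusted p = 0.0278). After the correction for length the differences were -0.03 and 0.04, and 3.29% of all genes passed. The 2 groups overlapped for each of the 10 genes, where 23.8% of all tested genes did not overlap.

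With PDS, 2 of the 9 tested genes changed, both of them fibulins: Fbln5 fell and Fbln2 rose. Over all tested genes 8.09% passed, 5.13% higher and 2.96% lower. The median log2 change was -0.06 over the 9 genes and 0.02 over all genes. Fbln5 stood at 43.6, 43.1 and 42.9 CPM in the PDS controls and at 35.0, 35.8 and 33.9 CPM with PDS. The groups did not overlap, and the spread within each was small. The change was -0.31 ± 0.08 on the log2 scale, 1.24-fold lower (edgeR adjusted p = 0.0146), and after the correction for length it was -0.33 (adjusted p = 0.0068), where 8.65% of all genes passed. Fbln5 no longer passed without PDS library 3 (-0.29, adjusted p = 0.075).

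Fbln2 stood at 67.5, 76.4 and 64.4 CPM in the PDS controls and at 85.6, 87.0 and 77.9 CPM with PDS. The highest control lay just under the lowest treated library. The change was 0.27 ± 0.08, 1.20-fold higher (edgeR adjusted p = 0.0313). After the correction for length it was 0.20 and did not pass (adjusted p = 0.145). The call was also lost without PDS control library 1 (0.25, adjusted p = 0.098) or 3 (0.22, adjusted p = 0.136), and without PDS library 1 (0.25, adjusted p = 0.0986) or 2 (0.24, adjusted p = 0.132).

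The other 7 genes did not pass with PDS, although 4 of the 9 had an unadjusted p under 0.05 in edgeR and DESeq2 called 2. Fn1 stood at 9164, 10313 and 10285 CPM, within or just above the controls' range of 7312 to 10133 CPM (log2 0.17 ± 0.11, edgeR adjusted p = 0.377). Fbn1 moved the same way (131 ± 18.0 to 153 ± 16.7 CPM, log2 0.22 ± 0.11, edgeR adjusted p = 0.218). After the correction Fn1 was at 0.06 and Fbn1 at 0.10. The remaining log2 values were -0.11 for Emilin1 and Fbln1, -0.06 for Efemp2, 0.07 for Mfap5 and -1.43 ± 0.56 for Fbn2, with edgeR adjusted p-values of 0.127 to 0.755. Fbn2 rested on 22 counts over the 3 control libraries and 8 over the 3 treated ones. Together with Fbln5 and Fbln2, Fbln1 and Fbn2 were the genes of the 10 whose groups did not overlap, against 33.3% of all tested genes. The fibroblast markers summed to 2193 to 2411 CPM with PDS and 2366 to 2850 CPM in its controls, and their part in these changes was not tested.

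**Figure D3:**
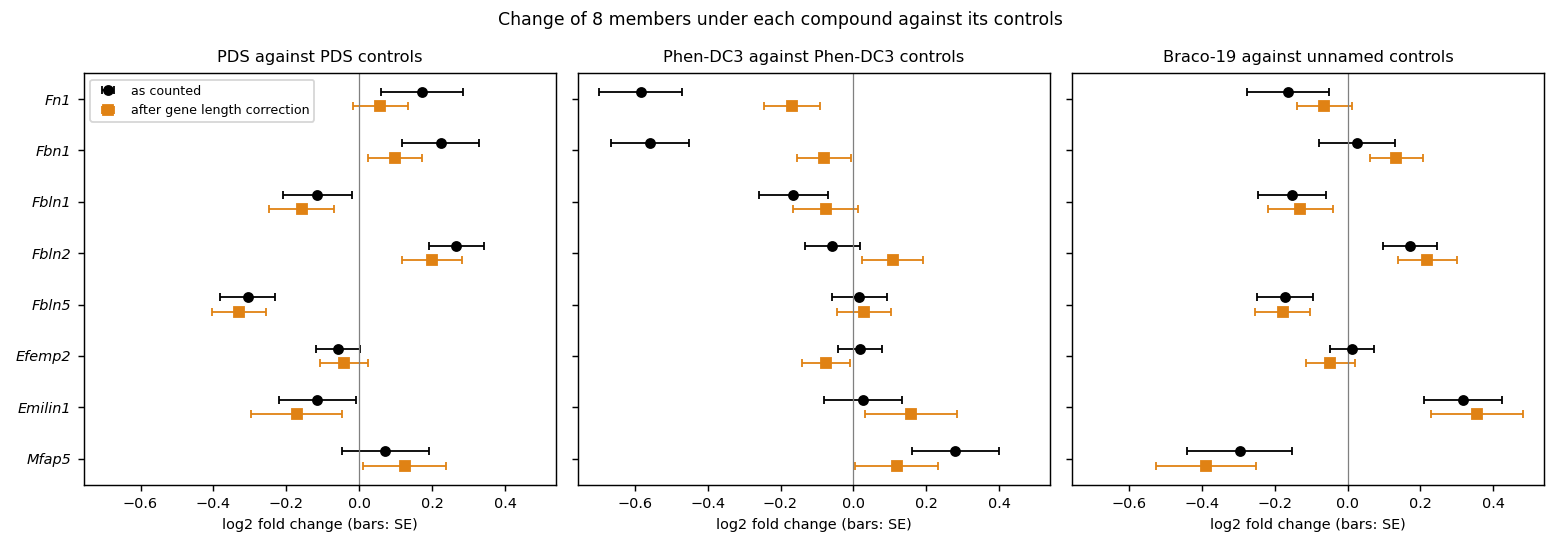
Log2 fold change with SE (horizontal axis) of 8 genes under each compound, as counted (black circles) and after the correction for gene length (orange squares); Fbn2 and Eln had too few counts to be drawn. With Phen-DC3, Fn1 moves from -0.58 to -0.17 and Fbn1 from -0.56 to -0.08 with the correction, while Fbln5 with PDS stays near -0.3.

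With Phen-DC3, fibronectin and fibrillin-1, the 2 longest transcripts of the set, fell, and the other 7 tested genes did not pass. At an unadjusted p under 0.05 the count was 4, with Fbn2 and Mfap5 besides, and DESeq2 called 2. Over all tested genes 8.01% passed, 5.82% lower and 2.19% higher. Fn1 stood at 12955, 10329 and 9708 CPM in the Phen-DC3 controls and at 6558, 7495 and 7960 CPM with Phen-DC3. Every treated library lay under every control, with control library 1 far above the other two. The change was -0.58 ± 0.11, 1.499-fold lower (edgeR adjusted p = 0.0112). Fbn1 stood at 188, 149 and 141 CPM in the controls and at 102, 106 and 116 CPM with Phen-DC3, again without overlap (-0.56 ± 0.11, 1.47-fold lower, edgeR adjusted p = 0.0112).

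Both changes lay close to the length trend of the same libraries. At the lengths of Fn1 and Fbn1 the trend between the Phen-DC3 groups was -0.41 and -0.47. After the correction the changes were -0.17 for Fn1 (edgeR adjusted p = 0.227) and -0.08 for Fbn1 (adjusted p = 0.56), and 0.331% of all tested genes passed. Long genes without Fn1 held 8.97% ± 0.59 of counts in the Phen-DC3 controls and 7.32% ± 0.45 with Phen-DC3 (SD, n = 3). Control library 1 was the highest of the 6 and Phen-DC3 library 1 the lowest, both in Fn1 and in that share. Both calls were lost without control library 1 (Fn1 -0.45 and Fbn1 -0.42, adjusted p = 0.0776), control library 2 (-0.62 and -0.60, adjusted p = 0.0502), Phen-DC3 library 1 (-0.51 and -0.52, adjusted p = 0.107) or Phen-DC3 library 2 (-0.60 and -0.55, adjusted p = 0.0501). With the 6 libraries fitted alone, the edgeR adjusted p of both was 0.199.

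The 6 tested genes under 5000 bases lay closer to 0, and none passed. Fbln5 stood at 43.9, 41.4 and 41.1 CPM in the Phen-DC3 controls and at 40.9, 41.2 and 45.8 CPM with Phen-DC3, ranges that overlap (log2 0.02, 95% interval -0.14 to 0.17). The value for Fbln2 was -0.06 ± 0.08 (0.11 after the correction), for Efemp2 0.02 ± 0.06 (-0.08) and for Emilin1 0.03 ± 0.11 (0.16). Mfap5, the shortest, was at 0.28 ± 0.12 (edgeR adjusted p = 0.128) and at 0.12 after the correction. Fbln1 was at -0.16 ± 0.09 (edgeR adjusted p = 0.255), with treated libraries just under the controls, and at -0.08 after the correction. Fn1, Fbn1 and Fbln1 were the genes whose groups did not overlap, against 22.1% of all tested genes. Fbn2, at 7808 bases, had the most negative value of the 9, -1.37 ± 0.56 (edgeR adjusted p = 0.117), on 21 and 8 counts. The 7 smooth muscle markers summed to 1891 to 2207 CPM with Phen-DC3 and 1589 to 1854 CPM in its controls. That sum followed Tagln (1128 to 1463 CPM on average), while Smtn (214 to 204 CPM) and Myh11 (8.51 to 7.21 CPM) were lower. The 7 fibroblast markers summed to 2334 to 2648 and 2481 to 2744 CPM, with Col1a1 lower (1413 to 1166 CPM) and Thy1 higher (798 to 919 CPM). The part of these markers in the changes was not tested.

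With Braco-19, none of the 9 tested genes passed, and 0.275% of all tested genes did. In edgeR 3 of the 9 had an unadjusted p under 0.05, and DESeq2 called 0. These 3 were Emilin1, Fbln2 and Fbln5. Emilin1 stood at 332, 357 and 334 CPM in the unnamed controls and at 370, 449 and 456 CPM with Braco-19. The groups did not overlap, and the change was 0.32 ± 0.11 (95% interval 0.09 to 0.54, edgeR adjusted p = 0.156). It passed when the 6 libraries were fitted alone (0.32, adjusted p = 0.0316). Fbln2 stood at 137, 153 and 153 CPM in the controls and at 159, 175 and 165 CPM with Braco-19 (0.17 ± 0.07, edgeR adjusted p = 0.226). Fbln5 was at -0.17 ± 0.08 (edgeR adjusted p = 0.236), with overlapping ranges.

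Fibronectin stood at 77376, 78317 and 78358 CPM in the unnamed controls and at 75527, 64199 and 69442 CPM with Braco-19. The treated libraries were lower and spread more widely (log2 -0.16 ± 0.11, edgeR adjusted p = 0.436). Fbn1 was at 0.03 ± 0.10, and Mfap5 at -0.30 ± 0.14 on 66 to 81 counts a library. Fn1, Fbln2, Emilin1 and Mfap5 did not overlap between the groups, against 28.1% of all tested genes. With the length correction none of the 9 passed in edgeR (0.317% of all genes did), with Emilin1 at 0.36, Fbln2 at 0.22, Fn1 at -0.06 and Mfap5 at -0.39.

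The changes under PDS and Phen-DC3 were also compared with each other, as a difference of the 2 changes in the same model. This difference passed for 4 of the 9 genes, where 20.2% of all tested genes passed, 12.4% higher and 7.76% lower with PDS. It was 0.75 ± 0.16 for Fn1 (edgeR adjusted p = 0.0047), 0.78 ± 0.15 for Fbn1 (adjusted p = 0.0030) and 0.32 ± 0.11 for Fbln2 (adjusted p = 0.0376), each higher with PDS. It was -0.32 ± 0.11 for Fbln5 (edgeR adjusted p = 0.0388), lower with PDS. After the correction for length only Fbln5 of the 9 passed (-0.36, edgeR adjusted p = 0.0292), and 13.2% of all genes did. The Fn1 and Fbn1 differences passed with each of the 12 libraries left out in turn. The Fbln2 difference passed in 4 of these 12 fits and the Fbln5 difference in 1, with adjusted p-values of at most 0.0921 and 0.0935. Whether the compounds were given at matched doses is not known.

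Between PDS and Braco-19 the change differed for 1 of 9 genes, Fbn2 (-2.04 ± 0.66, edgeR adjusted p = 0.0432), where 14% of all tested genes passed. It rested on 8 to 190 counts a group, on a gene that reached the tests only through the unnamed control and Braco-19 libraries, and passed in 3 of 12 fits with a library left out and not without the count filter. Between Phen-DC3 and Braco-19 none of the 9 passed (0.0494% of all genes did). There 5 had an unadjusted p under 0.05 in edgeR, and DESeq2 called 0. The 95% interval of that difference was -0.75 to -0.09 for Fn1 and -0.90 to -0.27 for Fbn1.

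Several receptors that bind fibronectin at the cell surface rose with PDS, although Fn1 itself did not pass. Of 20 genes listed for fibronectin binding and fibril assembly 18 were tested. This list and the related lists below were chosen with earlier results of these data known, so their counts are descriptions. With PDS 5 rose and 0 fell, where 5.13% of all genes rose, and the median log2 change was 0.12 against 0.02 over all genes. DESeq2 called 4 of the 18. Itga5, the integrin chain that with Itgb1 forms the main fibronectin receptor, rose 0.53 ± 0.07 (220 ± 19.8 to 319 ± 2.37 CPM, edgeR adjusted p = 6.2e-05). Itgb1 rose 0.40 ± 0.07 (1459 ± 96.4 to 1924 ± 73.1 CPM, edgeR adjusted p = 0.0018). Itga8, another partner of Itgb1, rose 0.62 ± 0.13 (43.2 ± 4.39 to 66.3 ± 2.76 CPM, edgeR adjusted p = 0.0054). Itgb3, the partner of Itgav, rose 1.67 ± 0.38 from a low level (0.50 ± 0.07 to 1.61 ± 0.39 CPM, edgeR adjusted p = 0.0086). In the PDS controls Itgb3 averaged under the minimum of the count filter, 10 counts in a library of median size. It did not reach the tests through these controls alone. Its rise therefore rests on few counts there and is given as a description. These 4 also passed after the correction for length, at 0.47, 0.35, 0.53 and 1.65. The fifth, Tns3, a tensin of the adhesions that pull on fibronectin, rose 0.25 ± 0.06 (edgeR adjusted p = 0.0125) and did not pass after the correction (0.14, adjusted p = 0.188). With each library left out, 4 or 5 genes rose, where 375 to 570 of all 14184 tested genes did. Without a compound, Itga8 was lower in the PDS controls than in the Phen-DC3 controls, a call not kept after the correction for length. That call was also lost without PDS control library 2 (-0.37, edgeR adjusted p = 0.213) or 3 (-0.46, 0.102). The same held without Phen-DC3 control library 1 (-0.31, 0.239) or 2 (-0.43, 0.154). The 7 smooth muscle markers summed to 2280 to 2474 CPM with PDS and 1787 to 1956 CPM in its controls. Tagln carried most of that (1303 to 1827 CPM on average), beside Acta2 at 283 and 290 CPM, Cnn1 at 43.7 and 43.2 CPM and Smtn at 234 and 215 CPM. Their part in these rises was not tested.

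With Phen-DC3, 2 of the 18 fell, Itgav (-0.43 ± 0.08, edgeR adjusted p = 0.0112) and Tln1 (-0.38 ± 0.10, edgeR adjusted p = 0.0242), where 5.82% of all genes fell. Itgav encodes an integrin chain that binds fibronectin and vitronectin, and Tln1 the talin that links integrins to actin. After the correction Itgav was at -0.34 (adjusted p = 0.0464) and Tln1 at 0.05. The count was 8 without Phen-DC3 control library 3, 5 without Phen-DC3 library 3, and 0 without any of the other 4 libraries. The whole table moved likewise. Of all 14184 tested genes, 825 fell with every library kept, 1872 without control library 3 and 1609 without Phen-DC3 library 3. Without any of the other 4 libraries, 0 to 21 did. With Braco-19 none of the 18 passed, 5 had an unadjusted p under 0.05 in edgeR, and DESeq2 called 1. The change differed between PDS and Phen-DC3 for 7 of the 18, with the smallest p for Itga5 (0.72 ± 0.10, edgeR adjusted p = 3.5e-04) and Itgb1 (0.61 ± 0.11, edgeR adjusted p = 0.0014), against 20.2% of all genes, and 5 of the list passed after the correction. It differed between PDS and Braco-19 for 6 of the 18, against 14% of all genes, with the smallest p for Itga8 (1.11 ± 0.18, edgeR adjusted p = 9.1e-04).

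**Figure D4:**
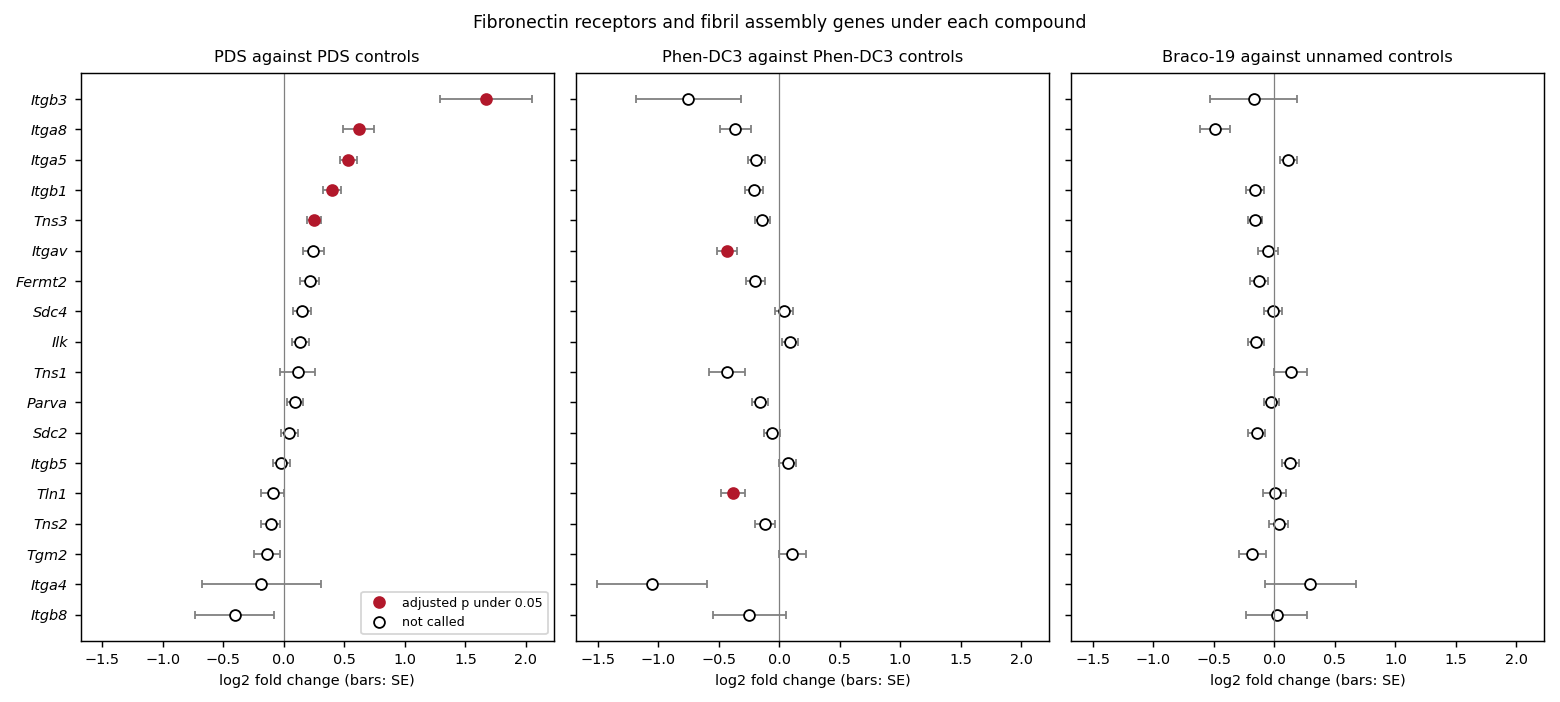
Log2 fold change with SE (horizontal axis) of the 18 tested fibronectin receptor and fibril assembly genes under each compound; filled points passed at an adjusted p under 0.05. With PDS 5 genes passed, all higher, with Phen-DC3 2 passed, both lower, and with Braco-19 none did.

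Among 14 tested genes of elastin cross-linking and breakdown (18 listed), Loxl2 changed with the smallest p. This lysyl oxidase family member rose with PDS from 129 ± 4.60 to 216 ± 8.51 CPM (0.75 ± 0.07, edgeR adjusted p = 1.2e-06), and by 0.74 after the correction. Its change also differed from that under Phen-DC3 (0.79 ± 0.10, edgeR adjusted p = 1.2e-04) and under Braco-19 (0.74 ± 0.10, edgeR adjusted p = 1.0e-04). Fkbp10, a chaperone of collagen and tropoelastin, fell with PDS (-0.20 ± 0.06, edgeR adjusted p = 0.0488), a call lost with each of the 6 libraries left out (adjusted p of 0.0638 to 0.208). Lox, the founding lysyl oxidase, fell with Phen-DC3 from 5321 ± 846 to 4073 ± 614 CPM (-0.39 ± 0.11, edgeR adjusted p = 0.0335) and was at -0.18 after the correction (adjusted p = 0.222). That call was lost without Phen-DC3 control library 1 (adjusted p = 0.19) or 2 (0.104) and without Phen-DC3 library 1 (0.199) or 2 (0.124). Loxl3, a further family member, rose with Braco-19 from 161 ± 12.2 to 230 ± 16.1 CPM (0.51 ± 0.08, edgeR adjusted p = 0.0069), and by 0.53 after the correction. It did not pass without unnamed control library 1 (0.45, adjusted p = 0.0559) or Braco-19 library 2 (0.46, adjusted p = 0.0649) or 3 (0.51, adjusted p = 0.0665).

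Of the microfibril and latent TGF-beta binding genes 9 of 14 listed were tested. None passed with PDS or Braco-19, where 2 and 3 had an unadjusted p under 0.05 in edgeR and DESeq2 called 0. With the length correction 1 was lower with PDS, Adamtsl3, named here after its values were seen (-0.25 as counted and -0.35 corrected, edgeR adjusted p = 0.0109). With Phen-DC3, Ltbp1, whose product holds latent TGF-beta on microfibrils, and Ltbp2 of the same family fell. The log2 falls were 0.39 and 0.29 (edgeR adjusted p = 0.0112 and 0.0337). After the correction they were at -0.09 and 0.03. Neither passed without Phen-DC3 control library 1 or 2 or Phen-DC3 library 1 or 2. No tested gene of the other fibulins, emilins and multimerins (3 of 8 listed) or of the elastin receptor complex (3 of 3 listed) passed with any compound. For the first list 1 had an unadjusted p under 0.05 with PDS and 1 with Phen-DC3, for the second 1 with PDS, and DESeq2 called 0 in each.

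Between the control groups, most tested genes of 3 partner lists were lower in the PDS controls than in the unnamed controls, where 37.7% of all genes were lower and 35.6% higher. Of the 9 tested microfibril and TGF-beta binding genes 7 were lower and 1 higher, of the 14 cross-linking and elastase genes 10 were lower and 3 higher, and of the 18 receptor and assembly genes 12 were lower and 2 higher. Of the 3 other fibulins, emilins and multimerins 1 was lower and 0 higher, and of the 3 elastin receptor genes 0 were lower and 1 higher. Among the genes with the smallest p in each list, the log2 difference was -2.68 ± 0.10 for Mmp9, a protease that cuts elastin (15.8 ± 1.93 against 102 ± 7.13 CPM, edgeR adjusted p = 1.3e-14), -2.67 ± 0.13 for Itga8 and -1.72 ± 0.08 for Ltbp2. After the correction these were -2.39, -1.51 and -0.33. With the correction the receptor list split evenly, 7 lower and 7 higher. Tns3 and Hmcn1 changed direction with it, from -1.28 to 0.29 and from -3.03 to 0.09. The Phen-DC3 controls, against the same unnamed controls, had 7, 10 and 11 lower and 1, 4 and 3 higher in the first 3 lists. Over all genes 34.9% were lower and 34.6% higher there. After the correction these 3 lists had 6, 7 and 7 lower and 2, 3 and 5 higher, where 62.7% of all genes passed in either direction. Between the PDS and Phen-DC3 controls 6.09% of all genes passed. There 2 of the 18 receptor and assembly genes, Itga8 and Fermt2, were lower in the PDS controls. So were 2 of the 14 cross-linking and elastase genes, Tll1 and Mmp9. Of the 3 other fibulins, emilins and multimerins 1 was higher, Emilin2. The remaining lists had no call, and no list had one after the correction. With a library left out, the Emilin2 and Mmp9 calls were kept only without Phen-DC3 control library 3. Otherwise their edgeR adjusted p-values were 0.0775 to 0.167 and 0.0673 to 0.182. Tll1 and Fermt2 did not pass without PDS control library 2 or Phen-DC3 control library 1 or 2, nor Tll1 without PDS control library 3. DESeq2 called 0 in the list that holds Emilin2.

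Genes whose level ran most like each member's over the 18 libraries were found by Pearson correlation of log2 CPM, given as a description because the libraries share the split between the unnamed control and Braco-19 libraries and the other 12. For Fn1 they were Fat1 (0.999), Polr2a (0.9985) and Myof (0.9983), and for Fbn1 Igf2r (0.9991), Fat1 (0.9988) and Notch2 (0.9984). For Fbln2 they were Col5a1 (0.9923), Csf1 (0.9901) and Cherp (0.9901). Fbln5, which differed little across that split, was followed less closely, by Grb14 (0.9293), Edn1 (0.9275) and Btbd9 (0.9065).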

How the data were processed

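RNA from 18 libraries was sequenced. The authors deposited a table of raw read counts, with no normalisation. CASAVA, HISAT2 and featureCounts 1.5.0-p3 are named in the submitters' processing notes, per the labels. Genome build, annotation release and strand setting: not given in the sources used here. Genes were chosen by symbol, and the members and the lists of related genes were chosen with earlier results of these data known. Genes named besides the members are, per list and comparison, up to 4 that passed with the smallest p, Tns3 (PDS) excepted, and up to 3 genes of like pattern.

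Counts were filtered with filterByExpr by group (14184 genes), scaled by TMM and fitted with edgeR 4.0.16 (limma 3.58.1, R 4.3.3) in 1 quasi-likelihood model of 18 libraries with 1 mean per group and 12 residual degrees of freedom. Tests are two-sided, with Benjamini-Hochberg adjustment over all genes tested and a threshold of 0.05. Standard errors come from the F statistics. The length correction is a lowess curve (span 0.3) of each library's log2 CPM deviation on log2 gene length, entered as an offset. Alternatives were RLE scaling, no count filter, DESeq2 1.42.0, the length correction, the compared libraries alone, the replicate number as a block, all 9 controls pooled, and each library left out. The calling was tested on simulated counts.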

Additional observations from a re-analysis of the deposited data

Results flagged for a closer look

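The change under PDS differed from the change under Phen-DC3, by an interaction contrast in the edgeR model, for 4 of the 9 tested genes. The log2 difference was 0.75 for Fn1 (95% interval 0.42 to 1.09, adjusted p = 0.0047) and 0.78 for Fbn1 (0.47 to 1.10, adjusted p = 0.0030). It was 0.32 for Fbln2 (0.10 to 0.55, adjusted p = 0.0376) and -0.32 for Fbln5 (-0.55 to -0.10, adjusted p = 0.0388). After the correction for gene length the values were 0.23, 0.18, 0.09 and -0.36, and of these only Fbln5 passed (adjusted p = 0.0292). The change in Fbn2 under PDS differed from that under Braco-19 by -2.04 (-3.41 to -0.67, adjusted p = 0.0432). It was -2.27 after the correction (adjusted p = 0.0283), on 22 and 8 counts in the PDS groups and 112 and 190 in the other groups. Fbn2 reached the tests only through the groups with the higher counts, and the difference passed in 3 of 12 fits with a library left out and not without the count filter.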

How the results depend on the processing

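With PDS 2 genes were called, 1 with no count filter, with the length correction or with the replicate block and the length correction together, and 0 with the replicate block alone or with all 9 controls pooled. With Phen-DC3 2 were called, and 0 with the length correction, the compared libraries alone, the replicate block, the block with the length correction, or all 9 controls pooled. With Braco-19 0 were called, and 1 with the compared libraries alone. For the difference between PDS and Phen-DC3, 4 were called, 2 with no count filter, 1 with the length correction, 2 with the replicate block and 0 with block and length correction. For PDS against Braco-19, 1 was called, 0 with no count filter, and 2 with DESeq2 or with the compared libraries alone. The cause of these shifts was not tested. The fit without a count filter takes in more genes, and the compared libraries alone are fewer samples.

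With each library left out, the count was 1 to 2 with PDS, 0 to 2 with Phen-DC3, 0 with Braco-19, 0 to 2 between the PDS and Phen-DC3 controls, 8 and 6 to 7 for these controls against the unnamed controls, 2 to 3 for PDS against Phen-DC3 and 0 to 2 for PDS against Braco-19. Where this left a group with 2 libraries, the spread was still pooled over all groups.

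Counts over all genes moved more. PDS gave 1148, but 2030 with the compared libraries alone, 587 with the block, 757 with block and length correction and 102 with all controls pooled. Phen-DC3 gave 1136, but 2056 in DESeq2, 47 with the length correction, 1 with the compared libraries alone or with the block, with and without the length correction, and 0 with all controls pooled. Braco-19 gave 39, but 333 in DESeq2, 730 with the compared libraries alone, 2 with the block, 7 with block and length correction and 0 with all controls pooled. The PDS and Phen-DC3 controls gave 864, but 1606 in DESeq2, 466 with the length correction, 3 with the compared libraries alone, 556 with the block and 290 with both. With each library left out, PDS gave 570 to 882, Phen-DC3 0 to 3336, Braco-19 1 to 160 and the PDS against Phen-DC3 controls 3 to 2752.

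Replicate numbers did not pair the samples: same-numbered deviations correlated at -0.04 to 0.06 for PDS, -0.25 to -0.03 for Phen-DC3 and 0.01 to 0.07 for Braco-19. In the Braco-19 comparison 6 of 6 samples correlated best with their own number, which is a hint from the data only. Between the Phen-DC3 controls and the unnamed controls 5 of 6 did, and in the remaining comparisons 0 to 2 of 6.

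Among values that passed the test as reported or under the alternative, those that changed direction were Fbln2 (-0.18), Fkbp10 (0.060) and Itga8 (-0.92) with PDS when all controls were pooled. With the length correction, and again with block and length correction, Ltbp2 (0.0331 and 0.0332) and Tln1 (0.0457 and 0.0490) did so with Phen-DC3. So did Hmcn1 (0.0922 and 0.0843) and Tns3 (0.29 and 0.28) in the PDS controls, and Hmcn1 (0.21 and 0.21) and Tns3 (0.11 and 0.11) in the Phen-DC3 controls, against the unnamed controls. Depth limits Eln throughout, and Fbn2 in the PDS and Phen-DC3 groups, where changes of the size called in the other genes with a compound were not detectable.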
